A study of Homo sapiens with 18 samples.

Results

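The exocyst is the protein complex that holds a secretory vesicle against the plasma membrane before the SNARE proteins fuse them. It is assembled from a module of EXOC1, EXOC2, EXOC3 and EXOC4 and a module of EXOC5, EXOC6 or its paralog EXOC6B, EXOC7 and EXOC8. Small GTPases recruit it: the Ral proteins bind EXOC2 and EXOC8, and RAB11 on the vesicle binds EXOC6. In antibody-secreting plasma cells, the cells from which multiple myeloma arises, the exocyst is one of several tethering complexes on the secretory route.

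The 9 genes that encode these subunits were taken by symbol from the 62703 genes of the count tables, and all 9 were found. EXOC4 and EXOC6B were selected on their measured fold changes between the gapmeR labels in these libraries, so their label differences are given as a description with no test. The question for the other 7 subunits was whether they moved with EXOC4 and EXOC6B.

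RNA was sequenced from human multiple myeloma cells in 18 libraries, 3 for each of 6 groups. The groups were labelled AMO1, H929 or LP1, each with the gapmeR gN1E, which is directed against the long non-coding RNA NEAT1, or the scrambled control gapmeR SCR. A gapmeR is a short antisense oligonucleotide with locked nucleic acid ends that leads RNase H to the RNA it pairs with. All cells took up the naked oligonucleotide from the medium (gymnosis) and were collected at 48 h, and AMO1, H929 and LP1 are established myeloma cell lines. The labels do not say whether the lettered replicates were separate cultures, so the p-values measure the spread between these libraries, which may be technical.

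The labels could not be taken at face value. NEAT1 (chromosome 11) was higher in the libraries labelled gN1E in every line, with log2 fold changes of 2.66 (AMO1), 2.74 (H929) and 2.14 (LP1) and no overlap between the labels. This goes against the label of a gapmeR meant to lower it. In the count tables, the column names give SCR where the sample label gives gN1E and H929 where it gives LP1, and the reverse. Each group is therefore called by its label, and every fold change is libraries labelled gN1E over libraries labelled SCR. The words "with NEAT1" mean only higher in the libraries labelled gN1E. Each line had a single gapmeR against NEAT1 and a single control gapmeR. Differences that go with the NEAT1 level and with the oligonucleotide itself therefore cannot be told apart. The line labels were in doubt as well. The libraries labelled H929 had 1.22 to 1.48 CPM of FGFR3, while H929 is known for the t(4;14) translocation that raises FGFR3 and NSD2. Those labelled LP1 had 618 to 724 CPM of FGFR3. NSD2 lay between 214 and 267 CPM in the libraries labelled H929 and between 1547 and 1705 CPM in those labelled LP1. LP1 is known for the same translocation. Which line the libraries labelled H929 came from was not tested. H929 is used below only as their label. The libraries labelled H929 resembled those labelled AMO1 in some clone marks and not in others: IGHV3-23 lay between 1032 and 1957 CPM in H929 and between 1434 and 2110 CPM in AMO1, with 0 reads in LP1, and CCND2 lay between 1532 and 1903 CPM in both and at no more than 2.02 CPM in LP1. MAF separated them, with 28.7 to 38.9 CPM in H929 against at most 0.17 CPM in AMO1 (182 to 239 CPM in LP1), and FGFR3 did not exceed 0.219 CPM in AMO1. All 7 plasma cell markers were detected in every line, CD14, LYZ and HBB stayed under 0.3 CPM, and the T cell gene CD3E lay between 7.4 and 24.9 CPM. Total counts per library ran from 28061606 to 69937229 (median 53807614), and the lowest 2 were libraries labelled AMO1 and gN1E.

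EXOC4 (ENSG00000131558.15, chromosome 7, 133253073 to 134066589 in hg38, plus strand) and EXOC6B (ENSG00000144036.16, chromosome 2, 72175984 to 72826041, minus strand) are by far the longest genes of the set, at 814 kb and 650 kb. The other 7 span 5.1 kb (EXOC8) to 233 kb (EXOC6). No exon of a subunit shares a base with a gene on its own strand. On the other strand, exons of ZACN cover 26.2% of the exon length of EXOC7, those of SPRTN 14.7% of EXOC8, those of ENSG00000286599 10.7% of EXOC1 and those of SLC9A3 and PP7080 10.3% of EXOC3, and the reads were counted by strand.

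Stretches of sequence shared with NEAT1 separated EXOC4, EXOC6B, EXOC3 and EXOC2 from the other subunits. When all 11-base stretches of NEAT1 were ranked by the AMO1 log2 fold changes of the 14979 genes that were scored, exocyst subunits left out, the top ones merged into a single 16-base segment on chromosome 11, from 65425850 to 65425865 on the plus strand. The ranking score took the fold change of each gene relative to the median of genes of like span, with extreme values capped. The mean over the genes that carry a stretch, less the mean over all scored genes, was divided by a standard error. That standard error used the SD of all scored genes, not of the carriers alone. The score was 23.7 for the top stretch and 9.53 for the best one outside the segment. The same stretch led in the libraries labelled H929 (25.7) and LP1 (10.8). The segment and its longest runs in these subunits are shown on the sense strand, which has the sequence of the RNA. A run of 10 bases in a coding exon of EXOC3 is also shown. They are given because run length differs between these 4 subunits and the other 5. The shared run is in capitals, with 8 flanking bases on each side.

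NEAT1 segment, chr11:65425850-65425865: CTTTTGTGGTCACTGT
EXOC4, intron 9, chr7:133557062-133557073: cagcatcaTTGTGGTCACTGagctcttc
EXOC4, intron 17, chr7:134056122-134056133: tatgtagcTTTGTGGTCACTaaagtata
EXOC6B, intron 6, chr2:72659619-72659629 (minus): tccaacacTGTGGTCACTGcaatagtg
EXOC6B, intron 1, chr2:72750192-72750202 (minus): gttttaaaTTGTGGTCACTtttggcca
EXOC3, intron 5, chr5:457712-457722: cgggctgcTGTGGTCACTGcctcccat
EXOC3, coding exon, chr5:453601-453610: gaggtcacTGGTCACTGTccgccgtg
EXOC2, intron 23, chr6:507028-507038 (minus): tgtgtgtgTGTGGTCACTGctgtgtgt

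Introns are numbered in the MANE Select transcript of GENCODE release 44, and the run in intron 5 of EXOC3 falls in an exon of another annotated transcript. EXOC4 carries 2 runs of 12 bases and 11 runs of at least 10, all in introns. EXOC6B carries 2 runs of 11 and 10 runs of at least 10, all in introns as well. EXOC2 repeats the run shown at chr6:507210-507220, inside the same intron and with the same TG-rich flanks. EXOC1, EXOC5, EXOC6, EXOC7 and EXOC8 share no run longer than 9 bases.

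Long genes often hold such runs. Among genes within 1.5 times the span of EXOC4, 29.3% carry a run of at least 12 bases, and among those of like span to EXOC6B, 66.7% carry 1 of at least 11. For EXOC2 the share was 32.7%. EXOC3 spans only 28.8 kb, and 6.19% of genes of its span carry a run of at least 11 bases. At the other end stands EXOC6: it spans 233 kb, and 99.7% of genes of like span have a run at least as long as its 9 bases.

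EXOC4, the scaffold subunit of the first module, was high in every library with high NEAT1. In the libraries labelled AMO1 and SCR its level was 41.7, 42.8 and 38.5 CPM (read counts relative to the library total, scaled between libraries by TMM), and in those labelled gN1E it was 119.9, 125 and 124 CPM. In those labelled H929 it was 36.1, 35.5 and 34.5 CPM under SCR and 108.2, 113 and 109.1 CPM under gN1E. In those labelled LP1 it was 42.4, 47.7 and 49.3 CPM under SCR and 67.9, 72.2 and 71.7 CPM under gN1E. The labels did not overlap in any line, and the libraries labelled LP1 and gN1E stood well under those of the other 2 lines with the same gapmeR label. The log2 fold changes were 1.59 (SE 0.060) in AMO1, 1.62 (SE 0.051) in H929 and 0.63 (SE 0.060) in LP1, which is, in H929 and LP1, 3.08-fold and 1.54-fold.

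EXOC6B, the paralog of EXOC6 that can take its RAB11-binding place in the complex, also separated the gapmeR labels. Under SCR its level was 13.0, 13.4 and 12.4 CPM in AMO1, 10.3, 9.48 and 11.5 CPM in H929, and 26.9, 25.8 and 29.0 CPM in LP1. Under gN1E it was 18.8, 18.9 and 22.4 CPM in AMO1, 20.1, 21.1 and 20.3 CPM in H929, and 37.3, 36.2 and 33.1 CPM in LP1. In each line all 3 libraries labelled gN1E lay above those labelled SCR. The log2 fold changes were 0.63 (SE 0.090) in AMO1, 0.97 (SE 0.077) in H929 and 0.41 (SE 0.065) in LP1. Its highest fold change was in H929, while that of EXOC4 was about equal in AMO1 and H929. Because this contrast also named both genes, their fold changes were not tested between lines.

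**Figure D1:**
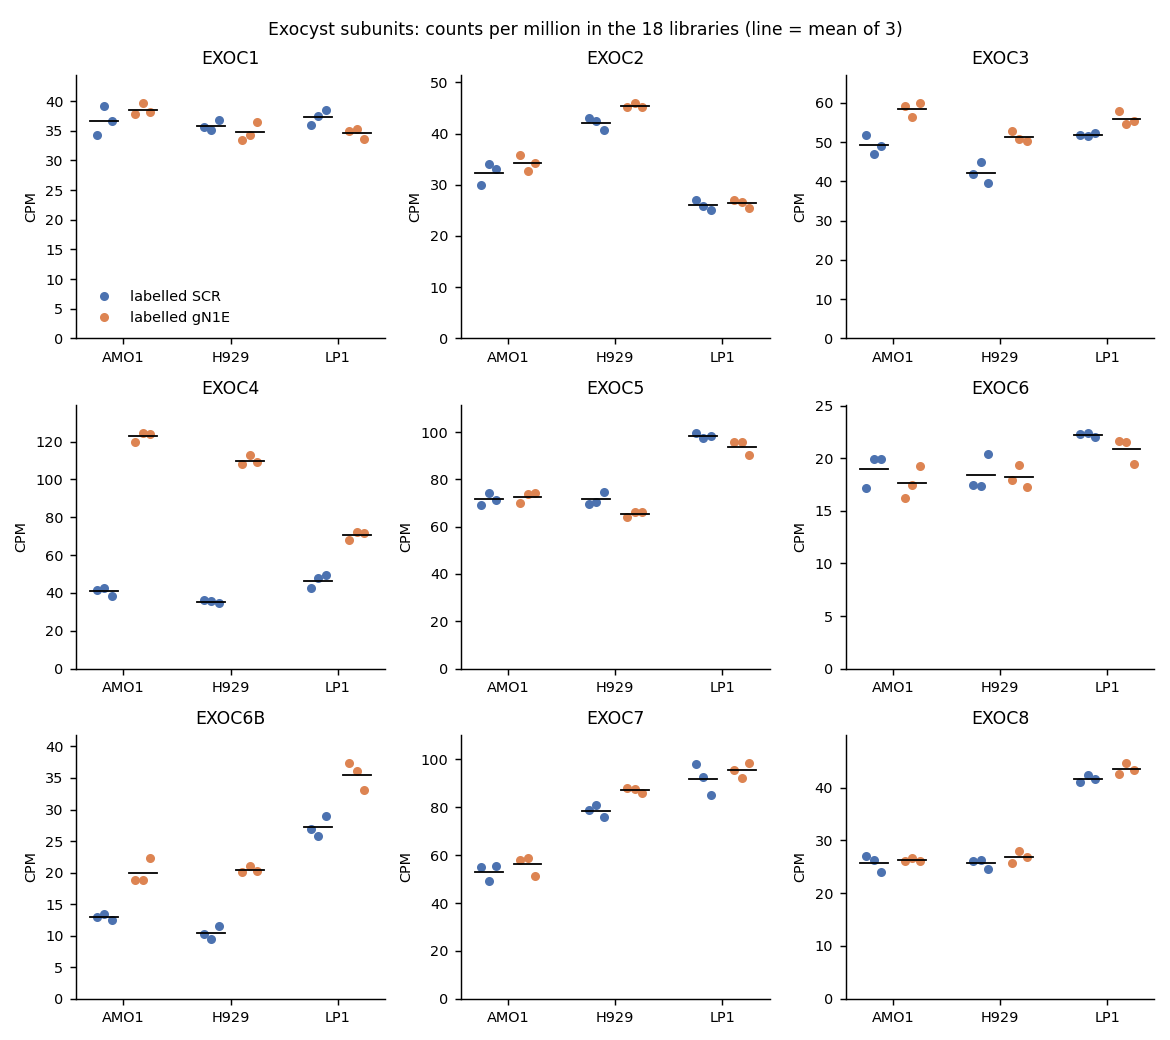
Level of each exocyst subunit in the 18 libraries, in CPM (vertical axes start at 0), by line label and gapmeR label. Points are libraries and black lines are means of 3. EXOC4 and EXOC6B separate the gapmeR labels in all 3 lines, EXOC3 by a smaller margin, and EXOC8 separates LP1 from the other lines.

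Of the other 7 subunits, only EXOC3 passed the test, and it did so in AMO1 and H929. That is 1 of 7 in AMO1, where 2.06% of the 22933 genes tested passed (1.64% higher, 0.419% lower), and 1 of 7 in H929, where 5.47% of 23499 passed (3.7% higher, 1.77% lower). With the replicate letter as a block, the AMO1 count was again 1 of 7, where 6.08% of all genes passed and 55.7% of those were higher, against 79.7% without the block. In LP1 the edgeR fit called none of the 7 at an adjusted p of 0.05, where 1.43% of 23165 genes did (0.656% higher, 0.777% lower). At an unadjusted p under 0.05 it was 1 of the 7 in LP1, EXOC3, beside 13.0% of all genes, and limma-voom and DESeq2 also called 0 there. By the same unadjusted edgeR p, EXOC3 alone was under 0.05 in AMO1, beside 12.2% of all genes. In H929, EXOC3 and EXOC7 were under it as higher and EXOC5 as lower, beside 17.7% of all genes. The median log2 fold change of the 7 was 0.07 in AMO1, 0.05 in H929 and 0.04 in LP1, beside -0.02, -0.01 and 0.00 over all genes tested. With 3 libraries against 3, a two-sided exact permutation test of a single gene cannot give a p under 0.1.

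EXOC3 (ENSG00000180104.16, chromosome 5, 443175 to 471937, plus strand) joins the others in the core of the first module. Its levels in AMO1 were 51.9, 46.9 and 48.9 CPM under SCR and 59.1, 56.4 and 60.0 CPM under gN1E. The labels did not overlap. Its log2 fold change there was 0.25 (SE 0.064, adjusted p = 0.0415, edgeR, Benjamini-Hochberg over all genes). This call lies close to the threshold and was lost with 5 of the 6 libraries left out in turn, SCR C, SCR D, gN1E A, gN1E C or gN1E D, where the adjusted p was between 0.0806 and 0.252. It was also lost with limma-voom (0.0603) and with library size only (0.0877). It held with the replicate letter as a block (0.00154), in the joint fit of the 18 libraries (0.00677) and with DESeq2 (0.0104), and the fold change stayed between 0.21 and 0.30 under every alternative run.

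In H929 the levels of EXOC3 were 41.9, 45.0 and 39.6 CPM under SCR and 52.7, 50.8 and 50.3 CPM under gN1E. The labels did not overlap here either, and the log2 fold change was 0.27 (SE 0.056, adjusted p = 0.00273 by the same test). The call held under the 14 alternatives that keep the threshold of 0.05, with adjusted p-values from 0.000135 to 0.0258. It was lost under the thresholds of the study's supplementary methods, an adjusted p of 0.1 with a 1.5-fold change. The study's main text gives its AMO1 counts at an adjusted p under 0.05. In LP1 the levels were 51.9, 51.5 and 52.3 CPM under SCR and 57.9, 54.6 and 55.3 CPM under gN1E, again with no overlap. The log2 fold change of 0.13 (SE 0.052, adjusted p = 0.257) did not pass. EXOC3 thus had the direction of EXOC4 and EXOC6B in all 3 lines, at a fold of 1.19 in AMO1 and 1.21 in H929 where it passed.

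EXOC2, the Ral-binding subunit of the first module, did not pass in any line. Its log2 fold changes were 0.09 (SE 0.072, adjusted p = 0.687) in AMO1, 0.10 (SE 0.053, adjusted p = 0.369) in H929 and 0.04 (SE 0.062, adjusted p = 0.832) in LP1. The labels were apart only in H929, at 43.1, 42.5 and 40.8 CPM under SCR and 45.2, 46.0 and 45.1 CPM under gN1E. EXOC1, which binds phosphoinositides of the plasma membrane, had log2 fold changes of 0.07 (AMO1), -0.06 (H929) and -0.09 (LP1), with adjusted p-values of 0.724, 0.663 and 0.557. The 95% intervals of these differences for EXOC1 ran from -0.06 to 0.21, from -0.17 to 0.05 and from -0.20 to 0.02.

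In the second module no subunit passed in the same direction as EXOC6B. EXOC7, which binds the plasma membrane, came nearest, with a log2 fold change of 0.14 (SE 0.049, adjusted p = 0.115) in H929. Its levels there were 79.0, 80.8 and 75.7 CPM under SCR and 87.8, 87.4 and 85.9 CPM under gN1E, without overlap. In AMO1 it differed by 0.08 (adjusted p = 0.690) and in LP1 by 0.08 (adjusted p = 0.587). EXOC8, the other Ral-binding subunit, differed by 0.03, 0.05 and 0.08 (adjusted p = 0.921, 0.724 and 0.549), and its sign in AMO1 turned without TMM scaling. Its labels were apart in LP1 alone, by 41.1, 42.5 and 41.6 CPM under SCR against 42.6, 44.6 and 43.3 CPM under gN1E.

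EXOC5 and EXOC6 had log2 fold changes below 0, except EXOC5 in AMO1, and none passed. EXOC5, which links EXOC6 to the rest of the complex, had 69.7, 70.6 and 74.5 CPM in H929 under SCR and 64.1, 66.2 and 66.3 CPM under gN1E. The log2 fold change was -0.14 (SE 0.051, adjusted p = 0.119), and it reached an adjusted p of 0.0374 without TMM scaling. In LP1 EXOC5 differed by -0.05 (adjusted p = 0.735) and in AMO1 by 0.03 (adjusted p = 0.917), which becomes -0.01 with library size only. EXOC6, the paralog of EXOC6B, differed by -0.11 (SE 0.089), -0.03 (SE 0.074) and -0.07 (SE 0.067) in AMO1, H929 and LP1 (adjusted p = 0.681, 0.906 and 0.736). Its 95% intervals ran from -0.28 to 0.07, from -0.17 to 0.12 and from -0.20 to 0.07.

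Counting groups that did not overlap, 1 of the 7 was higher under gN1E in AMO1 (background 9.17% of genes), 3 in H929 (12.2%) and 2 in LP1 (7.42%). No subunit was lower without overlap in AMO1 (background 8.5%), 1 was in H929 (EXOC5, 9.57%) and 3 were in LP1 (EXOC1, EXOC5 and EXOC6, 10.6%). In LP1 the subunits that were apart thus split between the directions.

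**Figure D2:**
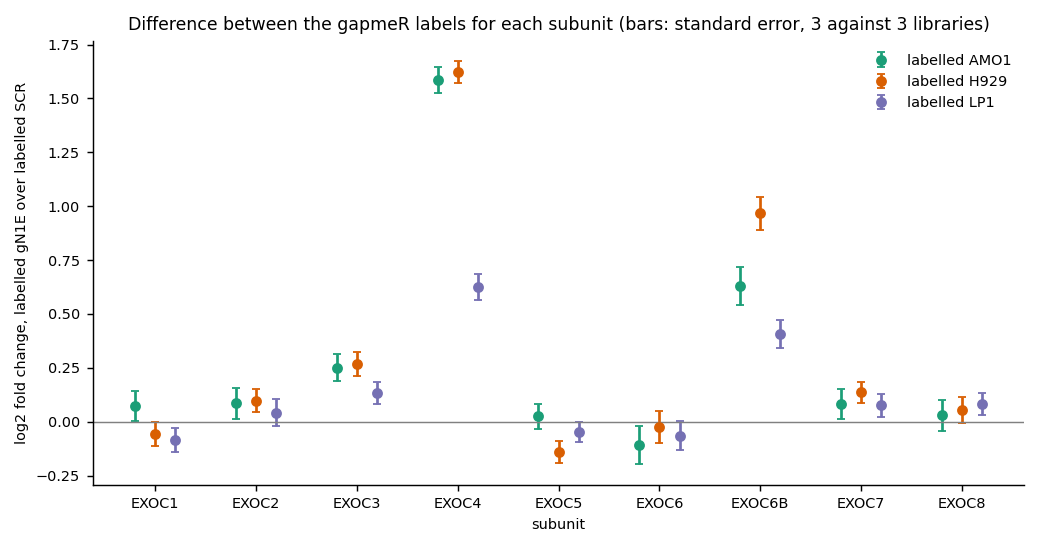
Log2 fold change of each subunit between the gapmeR labels (vertical axis) in the 3 line labels, with standard errors as bars; each value compares 3 libraries with 3. EXOC4 (0.63 to 1.62) and EXOC6B (0.41 to 0.97) lie above the other 7, of which EXOC3 is the highest in each line (0.13 to 0.27).

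The differences between gapmeR labels were compared between lines for the 7 subunits in a joint fit of the 18 libraries. The edgeR fit called none of the 21 contrasts at an adjusted p of 0.05, 3 of 21 had an unadjusted p under 0.05, beside 9.15% of all genes over the 3 pairs, and limma-voom called 0. Over all 26436 genes, 0% passed between AMO1 and H929 (1771 genes at an unadjusted p under 0.05, and limma-voom also called 0), 0.741% between AMO1 and LP1 (2820 at an unadjusted p under 0.05) and 0.874% between H929 and LP1 (2664). The contrasts under that unadjusted value were EXOC5 between AMO1 and H929 (difference 0.15, adjusted p = 0.729), EXOC1 between AMO1 and LP1 (0.18, adjusted p = 0.440) and EXOC3 between H929 and LP1 (0.17, adjusted p = 0.447), by edgeR with Benjamini-Hochberg adjustment. As a description, the fold change of EXOC4 was 0.98 (SE 0.079) higher on the log2 scale in AMO1 than in LP1 and 1.03 (SE 0.079) higher in H929 than in LP1, while AMO1 and H929 differed by -0.05 (SE 0.079). That of EXOC6B was lower in AMO1 than in H929 by 0.35 (SE 0.11) and higher in H929 than in LP1 by 0.60 (SE 0.11). NEAT1 itself had its smallest log2 fold change, 2.14, in LP1, where the levels of the libraries labelled SCR were 135, 173 and 189 CPM against 72.7 to 90.8 CPM in the other 2 lines; the part of this in the smaller changes of EXOC4 and EXOC6B was not tested.

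The subunits can be set beside the other genes with a run of the same length. For genes whose longest run was 11 bases the median log2 fold change was 0.07 in AMO1 (1109 genes), 0.07 in H929 (1165 genes) and 0.03 in LP1 (1137 genes), and 10.2%, 18.8% and 2.81% of them were called higher. With a run of 12 bases the medians were 0.11, 0.12 and 0.05, with 21.9%, 30.3% and 8.50% called higher. Genes with a run of 9 had medians of 0.00, -0.01 and -0.01. EXOC2 (11 bases) lay near the median of its class in each line, EXOC3 (11) above it, and EXOC6B (11) and EXOC4 (12) far above. Since EXOC6B and EXOC4 were selected on these same fold changes, their place above the medians follows from that choice. The 5 subunits with 9 bases lay between -0.14 and 0.14 in all lines. The segment was found in the fold changes of these same libraries, so this is a description, and what part the runs have in the levels of the subunits was not tested.

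**Figure D3:**
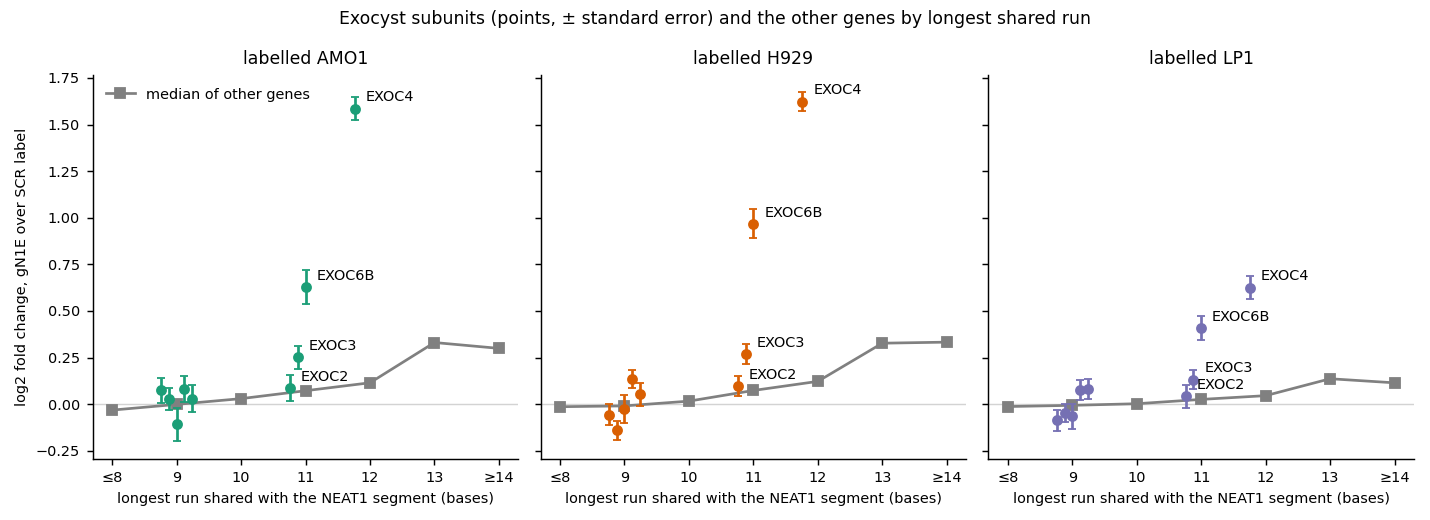
Log2 fold change between the gapmeR labels (vertical axis) against the longest run of bases shared with the 16-base NEAT1 segment (horizontal axis), by line label. Coloured points are the 9 subunits with their standard errors, spread sideways where they share a run length; grey squares are the medians of all other genes with that run length (average log2 CPM of at least 0). The 5 subunits with a run of 9 lie near 0, and EXOC6B (11) and EXOC4 (12), which were selected on these fold changes, lie above the grey line in each line.

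The levels of the subunits also differed between the lines. Under SCR the order per exon length in AMO1 was EXOC1 (6.84 CPM per kb), EXOC2 (6.49), EXOC3 (6.03), EXOC5 (5.73), EXOC7 (5.25), EXOC8 (5.05), EXOC4 (4.33), EXOC6 (2.93) and EXOC6B (1.27). The first 4 of these overlap with their neighbours, as do EXOC7 and EXOC8, and EXOC4, EXOC6 and EXOC6B each stand apart. The exon length counts every annotated exon of a gene, so these levels depend on the isoforms annotated.

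In H929 under SCR, EXOC2 (8.44 CPM per kb) and EXOC7 (7.76) led, and EXOC3 (5.16) and EXOC8 (5.03) were the only neighbours to overlap. In LP1 under SCR, EXOC7 (9.09), EXOC8 (8.18) and EXOC5 (7.89) led, each apart from the next, and EXOC2 (5.20) and EXOC4 (4.91) overlapped. EXOC4, EXOC6 and EXOC6B were the last 3 in each of the 3 lines under SCR. Under gN1E, EXOC4 was instead the first of the 9 in AMO1 (13.0 CPM per kb) and in H929 (11.6), apart from the next, and the fourth in LP1 (7.46), where it overlapped with EXOC5 (7.53).

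**Figure D4:**
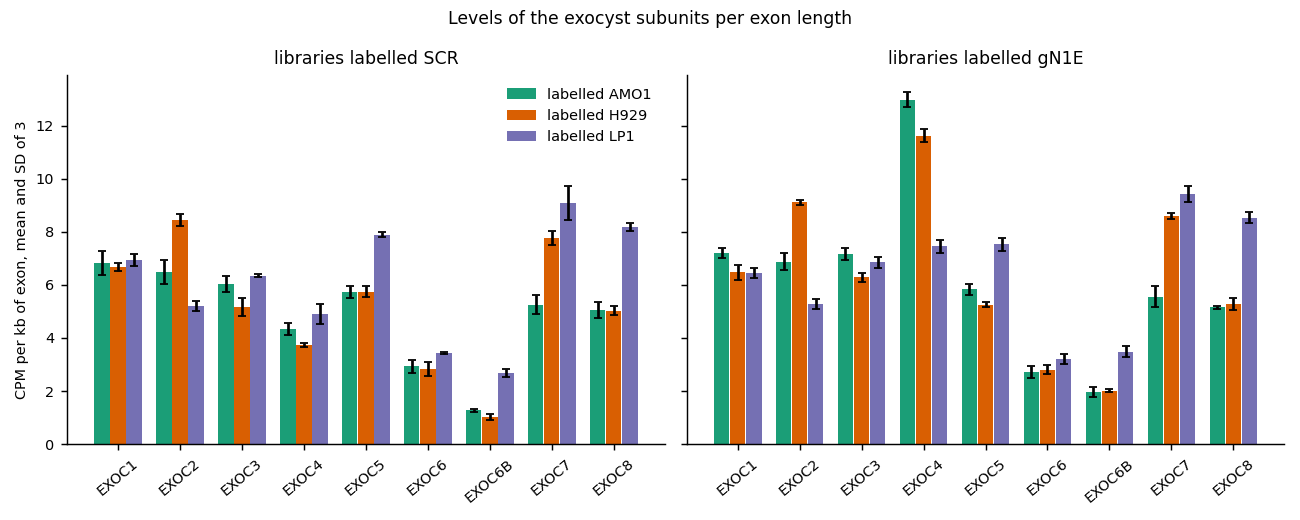
Level of each exocyst subunit per kb of exon (vertical axis, CPM per kb, from 0; bars are means of 3 and whiskers SDs) in the libraries labelled SCR (left) and gN1E (right). EXOC4 is among the 3 lowest under SCR and the highest under gN1E in AMO1 and H929, and EXOC5, EXOC7 and EXOC8 are highest in LP1 under SCR.

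Averaged over the gapmeR labels, 3 of the 7 subunits other than EXOC4 and EXOC6B differed between AMO1 and H929, 5 between AMO1 and LP1 and 6 between H929 and LP1, at an adjusted p under 0.05 in the joint edgeR fit. The shares over all 26436 genes were 44.4%, 75.9% and 74.6%, so differences in level between these lines were common. EXOC1 passed in none of the 3 contrasts, with differences of 0.09 (AMO1 over H929), 0.07 (AMO1 over LP1) and -0.03 (H929 over LP1), although AMO1 over LP1 within the libraries labelled gN1E gave 0.16 (adjusted p = 0.0236). EXOC5 did not pass between AMO1 and H929 (0.07, adjusted p = 0.0904). Within the libraries labelled gN1E it did, at 0.15 (adjusted p = 0.0202), against -0.00076 under SCR.

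EXOC8, EXOC5 and EXOC7 were higher in LP1. EXOC8 was lower in AMO1 than in LP1 by 0.71 (SE 0.042, adjusted p = 9.15e-17) on the log2 scale and in H929 by 0.70 (SE 0.042, adjusted p = 1.49e-16), and AMO1 and H929 differed by -0.01 (adjusted p = 0.842). Its 6 libraries labelled LP1 lay between 41.1 and 44.6 CPM, and the 12 others between 24.0 and 28.1 CPM. EXOC5 ran from 90.3 to 99.6 CPM in LP1 and from 64.1 to 74.5 CPM in the other 2 lines. EXOC7 was lowest in AMO1, 49.1 to 58.8 CPM, and lay between 75.7 and 87.8 CPM in H929 and between 85.3 and 98.4 CPM in LP1, where the ranges of H929 and LP1 overlap (difference -0.18, SE 0.041, adjusted p = 0.000216).

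EXOC2 was lowest in LP1, with 40.8 to 46.0 CPM in H929, 29.9 to 35.9 CPM in AMO1 and 25.0 to 27.0 CPM in LP1. These ranges did not overlap. The differences were 0.74 (SE 0.043, adjusted p = 4.86e-17) for H929 over LP1, 0.35 (SE 0.043, adjusted p = 7.57e-09) for AMO1 over LP1 and -0.39 (SE 0.042, adjusted p = 1.90e-09) for AMO1 over H929. EXOC3 was lower in H929 than in AMO1, by 0.21 (SE 0.040, adjusted p = 4.80e-05) on the log2 scale, and EXOC6 was higher in LP1 than in AMO1 by 0.24 (SE 0.056, adjusted p = 0.000316).

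For EXOC4 and EXOC6B the values within each gapmeR label are given as a description. The log2 difference of EXOC4 was -0.18 (SE 0.056) for AMO1 over LP1 and -0.39 (SE 0.057) for H929 over LP1 under SCR, and 0.80 (SE 0.056) and 0.64 (SE 0.055) under gN1E. EXOC6B kept LP1 as its highest line under both labels: AMO1 over LP1 was -1.07 (SE 0.077) under SCR and -0.83 (SE 0.077) under gN1E, and H929 over LP1 was -1.39 (SE 0.080) and -0.80 (SE 0.075). For AMO1 over H929 the values of EXOC6B were 0.32 (SE 0.081) under SCR and -0.04 (SE 0.078) under gN1E.

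EXOC6B and EXOC6 can also be compared as a ratio, which the choice of EXOC6B fixes in direction between the gapmeR labels. The level of EXOC6B per length was 0.435 ± 0.041 (SD, n = 3) of that of EXOC6 in AMO1 under SCR and 0.721 ± 0.028 under gN1E. In H929 the ratio was 0.36 ± 0.014 under SCR and 0.717 ± 0.027 under gN1E. In LP1 it was 0.779 ± 0.053 under SCR and 1.08 ± 0.014 under gN1E, the only group in which EXOC6B was above EXOC6, though the ranges of their levels overlapped there. The ratios in LP1 were the highest of the 3 lines under both labels.

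Summed over the 9 subunits, the level per length was 43.9 ± 0.75 CPM per kb (SD, n = 3) in AMO1 under SCR and 55.4 ± 0.43 under gN1E, 46.4 ± 0.33 and 57.4 ± 0.75 in H929, and 54.7 ± 0.16 and 58.2 ± 0.73 in LP1. These sums carry EXOC4 and EXOC6B. Without them they were 38.3 ± 0.65 and 40.5 ± 0.050 in AMO1, 41.7 ± 0.38 and 43.8 ± 0.44 in H929, and 47.1 ± 0.61 and 47.3 ± 0.65 in LP1. The first module, EXOC1 to EXOC4, made up 53.9% of the sum in AMO1, 51.7% in H929 and 42.8% in LP1 under SCR, and 61.7%, 58.3% and 44.7% under gN1E, a direction that the choice of EXOC4 fixes. Without EXOC4 and EXOC6B the share of EXOC1, EXOC2 and EXOC3 was 50.5% ± 0.66 (SD, n = 3) and 52.4% ± 0.84 in AMO1, 48.7% ± 0.49 and 49.9% ± 0.54 in H929, and 39.3% ± 0.62 and 39.3% ± 0.45 in LP1, under SCR and gN1E.

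The genes whose pattern over the 18 libraries was most like that of EXOC4, with log2 CPM centred on each line, were CNOT6 (Pearson's r = 0.994), LRBA (0.994), STAMBP (0.993), PPM1L (0.993) and SFSWAP (0.992). For EXOC6B they were CLASP2 (0.978), BICD1 (0.969), CNOT6 (0.967), NLK (0.966) and TTC27 (0.964). Since EXOC4 and EXOC6B were chosen for their label difference, the direction of these genes between the labels is fixed by that choice. These are the highest of 15433 genes compared. The same measure was 0.954 for EXOC4 with EXOC6B and 0.919 for EXOC4 with EXOC3. For EXOC4 with the remaining subunits it was 0.605 (EXOC2), 0.574 (EXOC7), 0.505 (EXOC8), -0.030 (EXOC1), -0.333 (EXOC6) and -0.471 (EXOC5). The libraries share the gapmeR labels, and the part of the label in this likeness was not tested.

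Around the exocyst, most genes of vesicle tethering and fusion did not pass. The lists were the Ral GTPases and their regulators (13 genes), the SNAREs of the plasma membrane and their partners (25) and the other tethering complexes COG (8), GARP and EARP (5), NRZ (3), HOPS and CORVET (10) and TRAPP (16). The lists were chosen with earlier results of these data known, so their shares are a description. The shares of all genes also cover genes with few reads, down to 10 in 1 library. In AMO1, 4 of the 74 tested passed (5.41%, beside 2.06% of all genes), all higher with NEAT1. In H929 it was 5 of 75 (6.67%, beside 5.47%), all higher, and in LP1 1 of 77 (1.3%, beside 1.43%), so in H929 and LP1 the shares lay near those of all genes. With library size only, 9 of 75 passed in H929 (12.0%, beside 5.53% of all genes in the same fit), 4 higher (NAPG, NBAS, RALGAPA2 and STXBP5) and 5 lower (RALB, RALGPS2, STX11, TRAPPC6B and VPS54). With the replicate letter as a block, which the AMO1 letters allow, it was 8 of 74 in AMO1 (10.8%, beside 6.08% of all genes in the same fit): the same 4 as higher, and RGL2, STXBP2, TRAPPC5 and VPS51 as lower.

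NAPG, a partner of NSF in taking SNARE complexes apart, was higher with NEAT1 in all 3 lines, by 0.70 (SE 0.063, adjusted p = 3.88e-07) in AMO1, 0.61 (SE 0.054, adjusted p = 3.87e-09) in H929 and 0.43 (SE 0.058, adjusted p = 0.000347) in LP1. STXBP5, a syntaxin-binding protein, was higher by 0.30 (adjusted p = 0.0345) in AMO1 and 0.40 (adjusted p = 0.000468) in H929, and had a difference of 0.18 (adjusted p = 0.122) in LP1; its AMO1 call was lost with limma-voom and with library size only. No other member of the SNARE list passed in these fits, but STXBP2 was called lower in AMO1 with the block, STX11 lower in H929 without TMM scaling and STX1A lower in LP1 with DESeq2. The median of the list was 0.06 over 22 genes tested in AMO1, -0.01 over 23 in H929 and -0.02 over 23 in LP1.

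Of the genes that act on Ral, RALGAPA2, a subunit of a complex that turns Ral off, was higher by 0.32 (adjusted p = 0.0197) in AMO1 and 0.40 (adjusted p = 0.000275) in H929, and had -0.03 (adjusted p = 0.916) in LP1. RALA and RALB, the GTPases that bind EXOC2 and EXOC8, did not pass in any line, with RALB at -0.06, -0.19 and -0.18 (adjusted p = 0.825, 0.121 and 0.315); without TMM scaling RALB passed as lower in H929.

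The other tethers contributed NBAS, of the NRZ complex at the endoplasmic reticulum, higher by 0.27 (adjusted p = 0.00922) in AMO1 and 0.25 (adjusted p = 0.000457) in H929, and TRAPPC12, higher by 0.16 (adjusted p = 0.0468) in H929, a call lost with limma-voom, with library size only and with the replicate block. No gene of COG, GARP, EARP, HOPS or CORVET passed in any line in the edgeR fits, except VPS51 as lower in AMO1 with the block and VPS54 as lower in H929 without TMM scaling. The medians of these lists lay between -0.04 and 0.05, next to medians between -0.02 and 0.00 over all genes.

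**Figure D5:**
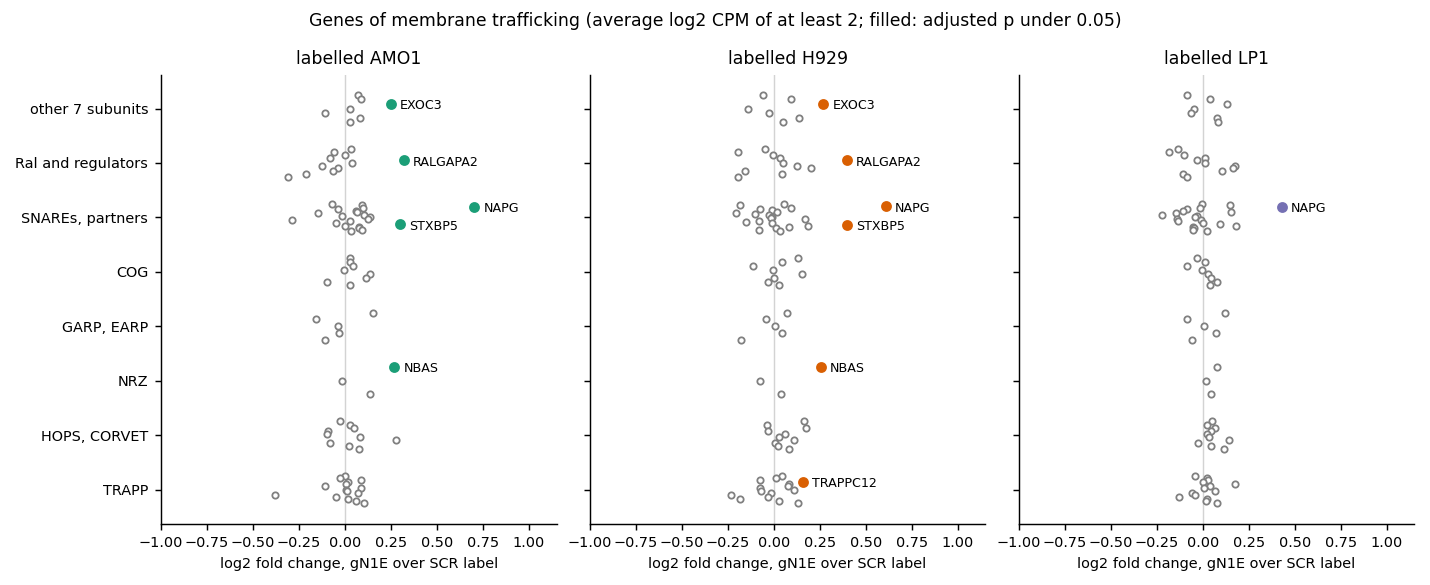
Log2 fold change between the gapmeR labels (horizontal axis) of the 7 tested subunits and of the genes of each trafficking list whose average log2 CPM reached 2 (rows), by line label; filled and named points have an adjusted p under 0.05. NAPG passes in all 3 lines, and EXOC3, RALGAPA2, STXBP5 and NBAS in AMO1 and H929.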

How the data were processed

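The authors deposited raw counts per gene, not normalized, made with STAR 2.7.10a on hg38 and with featureCounts 1.6.4 by strand on GENCODE release 43 (stranded total RNA, paired reads). Symbols matched 62686 of 62703 identifiers, and no row names no gene. Libraries were grouped by sample labels.

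Each line was fitted with edgeR 4.0.16 in R 4.3.3 (TMM, robust quasi-likelihood, Benjamini-Hochberg over all genes, threshold 0.05) on genes that reached 10 reads in 1 or more of the 6 libraries. Lines were compared in a joint fit of 18 libraries. SEs are the log2 fold change over the square root of F, and 95% intervals are normal. CPM used TMM over all 18 libraries. NEAT1 stretches were sought in hg38 with Python 3.11.15, on genes in 20 classes of span, and neighbouring stretches were merged while their score exceeded the top score divided by 3. The fits were tested on simulated data.

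Alternatives were limma-voom (limma 3.58.1), DESeq2 1.42.0, other scalings and filters, the replicate block, a joint fit and each library left out. The thresholds of the study's supplementary methods, an adjusted p of 0.1 with a 1.5-fold change, were a further alternative. Correlations between libraries that share a letter were above 0 throughout in AMO1 (0.402, 0.275 and 0.166) and below 0 throughout in H929 (-0.190, -0.104 and -0.230). In LP1 they were mixed (0.349 for A, -0.120 for B and -0.174 for D). The main fits used no block. Scoring NEAT1 stretches in H929 and LP1 was added after seeing the data. The genes named were the subunits, NEAT1, their paralogs, up to 2 rises and 2 falls per list and line where the average log2 CPM reached 2, and the 5 genes most like EXOC4 and EXOC6B. RALA, RALB and the markers were named outside this rule, after their values were seen. The members and lists were chosen with earlier results of these data known. A further gene list is not reported here.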

Additional observations from a re-analysis of the deposited data

How the results depend on the processing

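Of the log2 fold changes of the 7 tested subunits under the alternatives, 281 kept their direction and their side of the threshold, 7 lost the call (EXOC3 in AMO1), 1 gained one (EXOC5 in H929) and 5 changed sign, all of values near 0. Those of EXOC4 and EXOC6B, which had no test, kept their direction. The number of tested subunits past the threshold in AMO1, 1, became 0 with limma-voom, with library size only and with an adjusted p of 0.1 and a 1.5-fold change, and lay between 0 and 1 with 1 library left out. In H929 it was 2 with library size only, 0 with that adjusted p and fold change, and 1 with each library left out. With library size only, EXOC5 and EXOC8 had -0.01 each in AMO1 (-0.0125 and -0.00839), and EXOC4 moved to 1.58 in H929 from 1.62. With each library left out, EXOC8 in AMO1 lay between -0.0169 (without SCR D, the only one below 0) and 0.0682, and EXOC6 in H929 between -0.0679 and 0.0527, above 0 without SCR C and without gN1E C (0.0109). For the trafficking lists, the counts were 8 in AMO1 with the replicate block (4 without it), 9 in H929 with library size only (4 higher and 5 lower, 12.0% of those tested beside 5.53% of all genes, against 5 higher with TMM) and 2 in LP1 with DESeq2 (1 with edgeR). The replicate block changed no call of a subunit, and over all genes it moved the calls in AMO1 from 473 to 1394; DESeq2 moved those in LP1 from 332 to 512. Library size only moved the share of calls that were higher under gN1E from 79.7% to 51.2% in AMO1, from 67.7% to 42.8% in H929 and from 45.8% to 63.8% in LP1. The cause of these changes was not tested. Every subunit had at least 1518 reads per group of 3 libraries.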

Other observations

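The genes named after the exocyst subunits were at or near the floor of detection. EXOC1L had 0 reads in all 18 libraries. EXOC3L1 and EXOC3L2 did not exceed 0.14 and 0.039 CPM in any library. EXOC3L4 was highest in AMO1, between 0.82 and 1.20 CPM, and lay between 0.16 and 0.45 CPM in H929 and under 0.08 CPM in LP1. TNFAIP2, a gene of the same EXOC3-like family, had 0.83 ± 0.12 CPM (SD, n = 3) in AMO1 under SCR and 0.62 ± 0.040 under gN1E, with a log2 fold change of -0.40 (adjusted p = 0.617 from edgeR), and did not exceed 0.14 CPM in the other lines.

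The genes most like EXOC3, chosen after its values were seen, were NR6A1 (Pearson's r = 0.959 over the 18 libraries), TASP1 (0.954), AUP1 (0.952), BIN3 (0.951) and EIPR1 (0.949), the last a partner of the GARP and EARP tethers that the lists did not hold. Their log2 fold changes ranged from 0.26 to 0.80 in AMO1, a direction that choosing them for likeness to EXOC3 makes likely.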
